A study of Mus musculus with 27 samples.

Results

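Chromatin accessibility in mouse cardiac fibroblasts given 1 or more of the cardiac transcription factors Gata4, Mef2c and Tbx5 was compared with that of fibroblasts given the red fluorescent protein dsRed. The comparison used 24 of the 27 samples of the series. These were 21 libraries from 7 factor groups, with 3 libraries each and every group given the same weight, and 3 control libraries. The factor groups received retroviruses for Gata4 alone (G), Mef2c alone (M), Tbx5 alone (T), Gata4 and Mef2c (GM), Gata4 and Tbx5 (GT), Mef2c and Tbx5 (MT) or all 3 factors (GMT). All 7 factor groups were grown with SB431542, an inhibitor of TGF-beta signalling, and XAV939, an inhibitor of Wnt signalling. The control received a dsRed retrovirus and neither inhibitor. The factors and the inhibitors therefore cannot be told apart in any comparison with this control, and the 3 samples of dsRed cells with inhibitors were not analysed here.

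All groups came from a neonatal heart fibroblast line of the Cd-1 strain that was immortalised with large T antigen and carries an alpha-MHC-GFP reporter. Cells were harvested at day 2 without sorting, so cells that took up no virus were not removed. A single immortalised line limits what the groups model. What separated the 3 replicates of a group, described only as biological, is not stated, so p-values reflect the variation among these libraries. In bulk libraries, fewer cells with an open site and a less open site in each cell cannot be told apart.

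Gata4 is a zinc-finger factor, Mef2c a MADS-box factor and Tbx5 a T-box factor. All 3 bind enhancers and promoters of heart genes in the embryo, and given together they can turn mouse fibroblasts towards a cardiomyocyte-like state. In ATAC-seq the Tn5 transposase cuts DNA that is not wrapped tightly in nucleosomes, so the count of a region measures how open it is. Whether single reads or fragments were counted is not given in the sources used here, so a count is called a read in what follows. Open regions outside promoters are often enhancers, which differ between cell types more than promoters do.

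The table held 30815 regions of the mm9 build, 201 to 1484 bp wide with a median of 234 bp, and 20494 of them (66.5%) had enough reads to be tested. Total counts ran from 241394 to 1704896 in the factor libraries (median 647066) and were 457816, 801501 and 1204778 in the control libraries. Levels are given in CPM, the count scaled to a common library total, on the TMM scale, which adjusts library totals for differences in composition. No annotation of mm9 was used here, so regions are given by position, and the labelled fibroblast identity was not checked against marker genes. In 4 of the 24 libraries the level profile correlated better with another group than with the other libraries of its own group. For G replicate 2 these correlations were 0.823 with the control and 0.802 with its own group, and for GM replicate 2 they were 0.815 with the control and 0.805 with its own group. GT replicate 1 correlated at 0.893 with the G group and 0.726 with its own, and GMT replicate 1 at 0.772 with the MT group and 0.707 with its own. These 2 also correlated better with the control than with their own group, at 0.733 and 0.75.

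In the average of the 7 factor groups, 2106 regions (10.3%) were more open than in the control and 2180 (10.6%) were less open, at an adjusted p under 0.05 in edgeR's quasi-likelihood test. The median log2 fold change was 1.71 over the regions that were higher and -1.22 over those that were lower, against 0.10 over all regions tested. Regions higher in the factor groups had a median level of 27.4 CPM there and 6.49 CPM in the control. Regions lower in the factor groups had a median level of 24.3 CPM there and 54.3 CPM in the control. Over all regions tested the medians were 23.3 CPM in the factor groups and 18.9 CPM in the control. The number called depended on the control libraries: without control replicate 2 it was 723 higher and 1057 lower, and without control replicate 3 it was 362 and 1033. Without the 4 factor libraries named above, 3099 regions were higher and 3685 lower. All 4 correlated better with the control than with their own group, so leaving them out favours calls against the control. Scaling that let the normalisation vary with level (loess) gave 1552 higher and 2591 lower.

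The gains and the losses differed in how evenly the 7 factor groups took part. The 7 comparisons with the control share the same 3 control libraries, so their results are not independent of each other. Whether the change was of unlike size was therefore tested among the factor groups, without use of the control. Among the regions that were higher in the average, 1349 of 2106 (64.1%) had all 7 group log2 fold changes above 0, where 13.6% of all regions tested did. Among those lower in the average, 1855 of 2180 (85.1%) had all 7 below 0, where 16.4% of all regions tested did. The 7 factor groups differed from each other at 1910 of the 2106 higher regions (90.7%) and at 837 of the 2180 lower regions (38.4%), against 11660 of all 20494 regions tested (56.9%; edgeR F test with 6 degrees of freedom, adjusted p under 0.05). The gap between the highest and the lowest group had a median of 2.85 on the log2 scale at higher regions, 1.45 at lower regions and 1.88 over all regions tested. A lower region that did not pass this test is not thereby shown to be equal in the 7 groups.

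The same shares were taken by level. When regions were split by their mean level over all 24 libraries into a low, a middle and a high class of equal size, the groups differed at 83.7%, 93% and 91.7% of the higher regions. They differed at 23.9%, 40.4% and 45.3% of the lower regions and at 61.8%, 67.1% and 41.8% of all regions tested. In the high class the lower regions thus stood slightly above the regions tested, and in the other classes far below them. Across 35 alternative analyses the share of higher regions that differed among groups stayed above that of all regions tested, and the share of lower regions below it, in 35 of 35. The read filter asked for enough reads in as few libraries as a group holds. A region low in the control thus passed it only through factor libraries, which favours differences among groups there. Without the filter the shares were 89.7% of higher regions, 36.5% of lower regions and 42.1% of all regions, so the lower regions stood much closer to all regions.

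**Figure D1:**
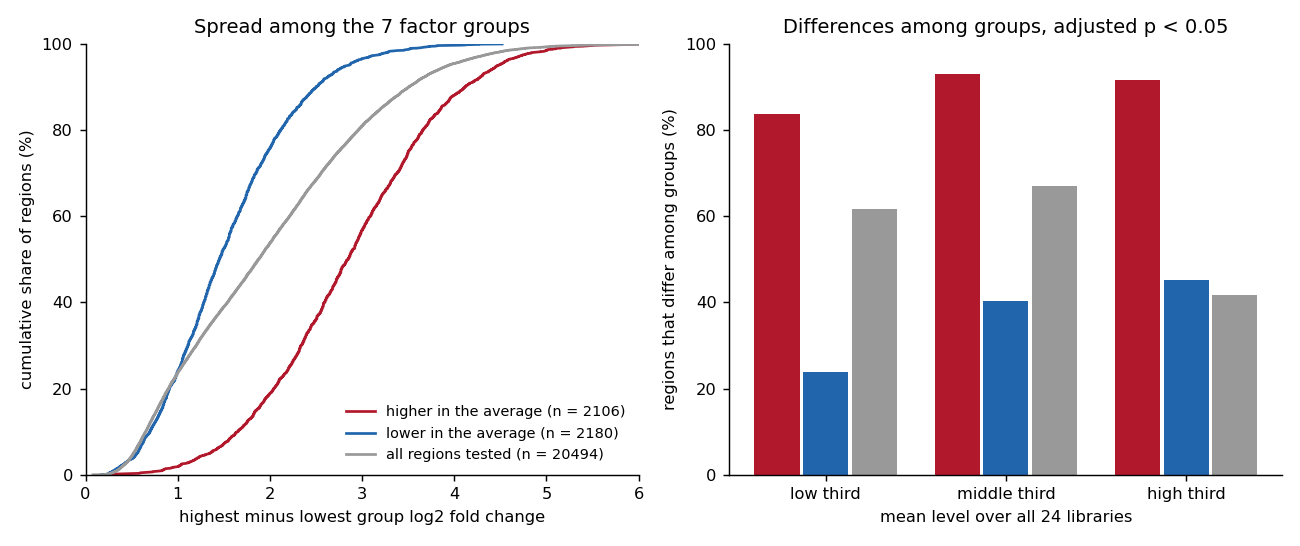
The left panel gives the cumulative share of regions (%) by the gap between the highest and the lowest of the 7 group log2 fold changes, for regions higher in the factor average (red), lower in it (blue) and all tested (grey). The right panel gives the share of regions (%) at which the 7 factor groups differed, by mean level. The red curve lies to the right, with a median of 2.85 against 1.45 for the blue curve.

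By group, the regions that were higher in the average had median log2 fold changes against the control of 1.01 in G, 0.98 in M, 1.79 in T, 1.41 in GM, 1.90 in GT, 2.16 in MT and 2.60 in GMT. Of these 2106 regions, 606 were called higher in G, 595 in M, 1150 in T, 868 in GM, 1334 in GT, 1567 in MT and 2010 in GMT. Among all regions tested, the share called higher was 9.61% in G, 9.67% in M, 14.5% in T, 8.5% in GM, 13.1% in GT, 17.5% in MT and 23% in GMT. GMT thus had the highest median gain, and the 2 groups with only Gata4 or only Mef2c the lowest. The lower regions had medians in a narrower band, of -1.04 in G, -1.13 in M, -1.59 in T, -1.06 in GM, -1.18 in GT, -1.27 in MT and -1.43 in GMT. Of the 2180 lower regions, 803 were called lower in G, 849 in M, 1369 in T, 654 in GM, 946 in GT, 1147 in MT and 1477 in GMT, while the share of all regions tested called lower was 6.07%, 6.47%, 10.6%, 3.75%, 5.81%, 7.2% and 10.5% in the same order. At lower regions T had the strongest median and GMT the most regions called. Since each group's values are part of the average that chose the regions, these counts are a description.

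Comparisons among the factor groups, in which the control takes no part, gave the size of these differences. The gained and lost regions were chosen by the average of these same groups. Counts and medians of these comparisons within them are therefore a description too. GMT was higher than the mean of the single factors at 1303 and lower at 3 of the 2106 regions that gained, with a median log2 difference of 1.25, where 17.4% of all regions tested were called higher and 2.59% lower. At the 2180 regions that lost accessibility, GMT was higher than the single factors at 28 and lower at 53, with a median of -0.23. Without GMT replicate 2 the number of regions called over the whole table was 1380 and without GMT replicate 3 it was 1818, against 4097 with both. The pairs were higher than the single factors at 60 of the regions that gained and at none of those that lost, with medians of 0.44 and 0.03, where 0.4% of all regions tested were called higher and 0% lower. The whole-table count for the pairs was 82 and turned on single libraries. It was 301 without GT replicate 1 and 20 to 52 without any of G replicates 1 and 3, M replicates 1, 2 and 3, T replicates 1 and 2, GM replicate 3, GT replicates 2 and 3, MT replicate 2 or GMT replicate 2.

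Of the factors, Tbx5 had the clearest split in the direction of the average, at regions which that average had chosen. The 4 groups with Tbx5 were higher than the 3 factor groups without it at 1125 of the 2106 regions that gained (53.4%) and lower at 205 (9.73%), with a median log2 difference of 0.81. At regions that lost accessibility the groups with Tbx5 were higher at 111 (5.09%) and lower at 455 (20.9%), with a median of -0.30. Over all regions tested these shares were 21.5% higher and 13.9% lower. For Gata4 the counts at regions that gained were close in both directions. The groups with Gata4 were higher than those without it at 500 and lower at 523 of the regions that gained, where 19.3% of all regions tested were higher and 15.3% lower. The groups with Mef2c were higher than those without it at 633 and lower at 366 of the regions that gained, where 18.6% of all regions tested were higher and 11.8% lower. At regions that lost accessibility the groups with Gata4 were higher at 394 and lower at 206, and the groups with Mef2c were higher at 236 and lower at 181.

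**Figure D2:**
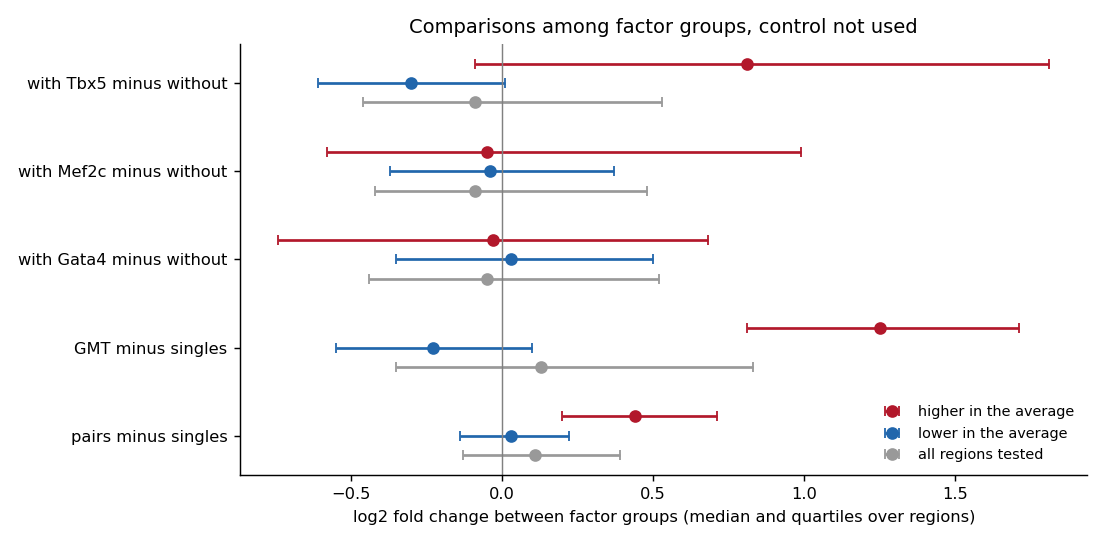
The x axis gives the log2 fold change between sets of factor groups, with the set named before "minus" on top. Points are medians and bars quartiles over the regions higher in the factor average (red), lower in it (blue) and all tested (grey). The red points lie at 1.25 for GMT minus the single factors and at 0.81 for groups with Tbx5 minus those without.

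Changes shared by every group were sought with a test that takes, for each region, the largest of the 7 p-values where all 7 groups moved the same way. No region passed at an adjusted p under 0.05 in edgeR, 0 higher and 0 lower. At an unadjusted p under 0.05, 66 regions were higher (0.322%) and 367 were lower (1.79%), and DESeq2 called 1 region lower and 0 higher at an adjusted p under 0.05. Less strict readings gave more: 13 regions were called higher and 117 lower in each of the 7 separate comparisons. All 21 factor libraries lay above all 3 control libraries at 90 of the regions called higher, and below them at 507 of those called lower. The same complete separation held at 91 (0.444%) and 511 (2.49%) of all regions tested. Losses thus outnumbered gains under each of these readings except edgeR's adjusted test, which called none, although the average alone gave nearly equal numbers. Control levels differed between the 2 directions, with medians of 6.49 CPM at regions higher in the average and 54.3 CPM at those lower. The part of this difference in the counts was not tested.

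The region nearest to the threshold was chr13:104177081-104177281, 201 bp wide, named here after its values were seen. Its level ran from 1.67 to 24.1 CPM with a median of 6.21 CPM in the factor libraries and was 66.8, 70.3 and 87.0 CPM in the control libraries. Every factor library lay below every control library. The log2 fold changes were -3.38 in G, -4.24 in M, -3.39 in T, -3.17 in GM, -3.77 in GT, -3.26 in MT and -3.08 in GMT, with SEs of 0.53 to 0.59, and the average was -3.47 ± 0.31 (SE; edgeR adjusted p = 1.42e-08). The largest of the 7 p-values was 2.72e-06, which adjusted to 0.0558 in edgeR. The test of differences among the factor groups gave an adjusted p of 0.746 in edgeR at this region. It passed the every-group test when any of G replicate 2, M replicates 1, 2 or 3, GT replicates 1, 2 or 3, MT replicate 3 or GMT replicate 1 was left out. Without all 4 libraries that resembled another group, 26 regions were called lower in every group and 0 higher. Since these 4 also resembled the control more than their own group, leaving them out favours such calls.

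The 117 regions called lower in each of the 7 comparisons had a median of 17.9 CPM in the factor groups and 73.5 CPM in the control, and a median average log2 fold change of -2.09. The factor groups differed at 10 of these 117 (8.55%). The 13 regions called higher in each comparison had a median of 33.0 CPM in the factor groups and 3.85 CPM in the control, and a median average of 2.90. The factor groups differed at 11 of the 13. Among the regions with complete separation of the libraries, the groups differed at 84 of 507 lower ones (16.6%) and 70 of 90 higher ones (77.8%).

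To show the shared changes region by region, the 12 higher and 12 lower regions were taken whose weakest group moved furthest, among regions in the upper part of the level range (above the median of those tested) with complete separation of factor and control libraries. These conditions left 53 higher and 297 lower regions to choose from. The groups did not pass the test of differences at 12 of the 53 and 231 of the 297. Because complete separation was a condition, no test is read from it here. A call in every group was not a condition. Of the 12 higher regions, 7 were called in each of the 7 separate comparisons, and of the 12 lower regions 9 were.

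Among the 12 higher regions, the average log2 fold change ran from 2.37 to 4.07 and the gap between groups from 1.08 to 3.65, and the groups differed at 10 of 12. In 8 of the 12, GMT had the largest change. The region ranked first was chr3:52890609-52891176, 568 bp wide. Its level was 9.97, 15.6 and 24.7 CPM in G, 80.2, 43.4 and 88.7 CPM in M, and 20.5, 17.9 and 17.1 CPM in T. It was 110, 39.7 and 114 CPM in GM, 15.2, 30.8 and 13.8 CPM in GT, 76.9, 92.6 and 47.1 CPM in MT, 32.1, 108 and 116 CPM in GMT, and 4.45, 1.30 and 3.78 CPM in the control. All factor libraries were above the control, but those with Mef2c, from 32.1 CPM up, did not overlap those without it, which reached 30.8 CPM. The average log2 fold change was 3.74 ± 0.54 (SE; edgeR adjusted p = 2.35e-05), and the groups with Mef2c exceeded those without it by 2.09 ± 0.26 on the log2 scale (edgeR adjusted p = 1.68e-07). With 7 control reads in all, the ratio of pooled rates was 18.9, with an exact 95% interval of 9.13 to 47.1 that covers counting error only.

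A gain that was larger in the groups with Mef2c was also seen at chr14:25066494-25066711. It had 24.1 to 65.7 CPM in the 12 libraries of groups with Mef2c, 5.19 to 9.19 CPM in the 9 factor libraries without it, and 2.23, 2.61 and 1.89 CPM in the control. The libraries with Mef2c did not overlap the other factor libraries, while separation of both from the control was a condition of the choice. Taken alone, G and T were not called above the control here (edgeR adjusted p = 0.0954 and 0.0899). The groups with Mef2c exceeded the factor groups without it by 2.73 ± 0.24 on the log2 scale (edgeR adjusted p = 2.8e-10), and the average over the control was 3.14 ± 0.47 (edgeR adjusted p = 3.26e-05). The control levels rest on 1, 2 and 2 reads, and the ratio of pooled rates was 14.1 (exact 95% interval 5.98 to 43.5).

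Other regions were higher in the groups with Tbx5 or with Gata4. At chr11:85617565-85618121 the factor libraries ran from 27.3 to 303 CPM with a median of 80.2 CPM, and the control libraries had 11.1, 11.7 and 11.3 CPM. Groups with Tbx5 exceeded those without it by 1.63 ± 0.24 on the log2 scale (edgeR adjusted p = 2.1e-06), and M, with a mean of 33.0 ± 4.42 CPM (SD, n = 3), was the lowest group. At 2 neighbours within 4 kb the average also rose, by 2.01 at chr11:85613331-85614047 and by 1.64 at chr11:85620388-85620788 (edgeR adjusted p = 0.00809 and 0.0319), while a nearer one 334 bp away had 0.67 (edgeR adjusted p = 0.355). At chr3:131573581-131573937 the factor libraries ran from 3.34 to 96.0 CPM with a median of 14.5 CPM, and the control libraries had 2.23, 0 and 1.89 CPM, from 3 reads in all. All factor libraries were above the control, the highest being GT replicate 2 and the lowest M replicate 1. A neighbour 2643 bp away, chr3:131576580-131576786, fell by 0.82 on the log2 scale (edgeR adjusted p = 0.0445). The ratio of pooled rates at chr3:131573581-131573937 was 21.5 (exact 95% interval 7.31 to 105), and groups with Gata4 exceeded those without it by 1.92 on the log2 scale (edgeR adjusted p = 2.45e-05).

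The largest average gain among the 53 regions that met these conditions was at chr15:80081059-80081398, where the factor libraries ran from 5.01 to 173 CPM with a median of 30.2 CPM and the control libraries had 2.23, 0 and 2.84 CPM. All 21 factor libraries were above the control, and GMT replicate 2 was the highest. The average log2 fold change was 4.07 ± 0.70 (SE; edgeR adjusted p = 0.000155), and the ratio of pooled rates was 25.0 with an exact 95% interval of 9.71 to 91.9. A neighbour 69 bp away, chr15:80081467-80082130, also rose, by 1.71 (edgeR adjusted p = 0.0109), while the next, 3276 and 3915 bp away, had 0.10 and -0.04 (edgeR adjusted p = 0.854 and 0.913). Groups with Tbx5 exceeded those without it by 1.55 ± 0.31 on the log2 scale (edgeR adjusted p = 0.000156). Groups with Gata4 exceeded those without it by 1.08 ± 0.31 (edgeR adjusted p = 0.00678). For Mef2c the difference was -0.57 ± 0.29 (edgeR adjusted p = 0.146). GMT exceeded the mean of the single factors by 2.35 ± 0.39 (edgeR adjusted p = 7.85e-05).

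At 2 of the 12 higher regions the groups did not differ past the threshold. The first, chr2:154317712-154318188, had 14.9 to 62.4 CPM with a median of 28.8 CPM in the factor libraries and 2.23, 2.61 and 9.46 CPM in the control. Its group means lay between 20.1 ± 5.06 CPM in GM and 42.2 ± 19.3 CPM in GMT (SD, n = 3 each), and the SDs of neighbouring groups overlapped. The average was 2.56 ± 0.43 (SE; edgeR adjusted p = 0.000134; differences among groups 0.279). The second, chr8:47961140-47961736, had 29.8 to 209 CPM with a median of 74.2 CPM in the factor libraries and 11.1, 15.6 and 18.0 CPM in the control. Libraries of the same group were far apart here: MT had 123, 79.2 and 33.0 CPM, and GM 116, 29.8 and 74.2 CPM. The average was 2.42 ± 0.48 (SE; edgeR adjusted p = 0.000746; differences among groups 0.131).

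**Figure D3:**
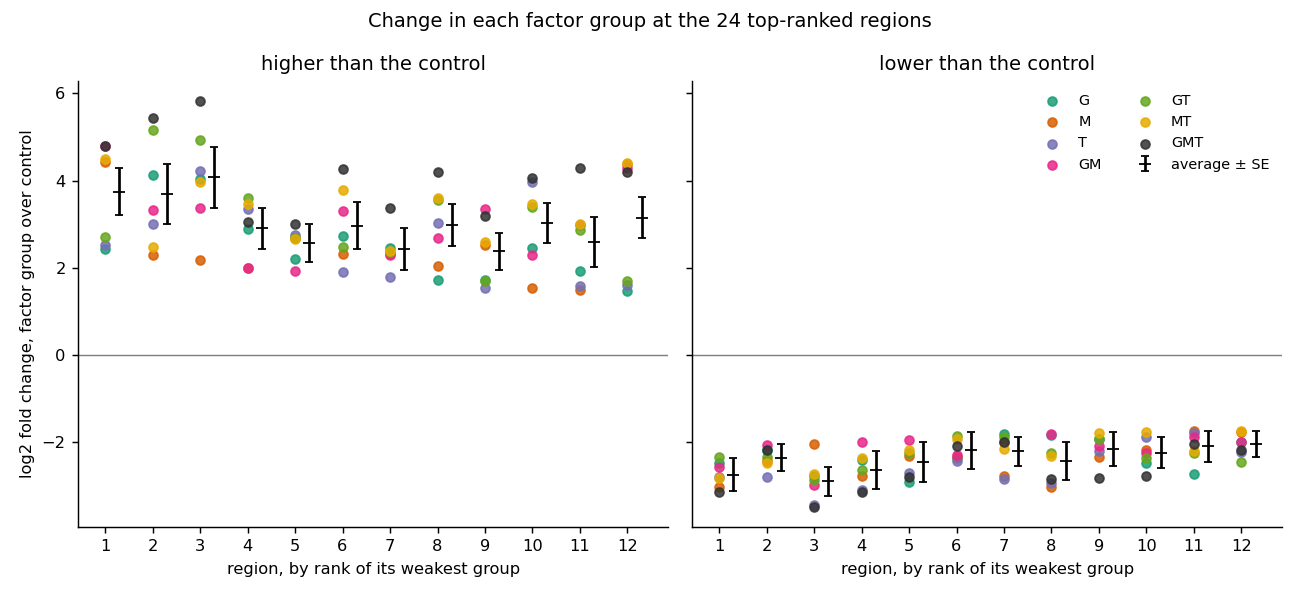
Each point is the log2 fold change of 1 factor group over the control, at the 12 regions higher (left) and the 12 lower (right) than the control, ordered by the size of their weakest group change, with the average and its SE beside them. Points spread by 1.08 to 3.65 in the left panel and by 0.55 to 1.44 in the right panel.

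The 5 other higher regions followed the same layout. At chr17:12983700-12983996 the factor libraries had 8.87 to 64.3 CPM (median 28.3 CPM) and the control 0, 2.61 and 5.67 CPM, with an average of 2.90 ± 0.47. At chr2:119992828-119993140 they had 5.86 to 70.9 CPM (median 18.6 CPM) and the control 4.45, 1.30 and 2.84 CPM, with an average of 2.96 ± 0.54. At chr16:38672576-38673191 they had 16.4 to 178 CPM (median 52.8 CPM) and the control 11.1, 7.82 and 5.67 CPM, with an average of 2.98 ± 0.49. In each of these the lowest factor library stood within a few CPM of the highest control library. The extremes at chr16:38672576-38673191 came from the same group, GT, whose replicate 1 was the lowest and replicate 2 the highest of the 21. At chr1:152985695-152986341 the factor libraries had 11.5 to 70.4 CPM (median 25.9 CPM) and the control 4.45, 6.51 and 5.67 CPM, with an average of 2.37 ± 0.43. At chrX:35792684-35793169 they had 7.18 to 93.2 CPM (median 15 CPM) and the control 6.68, 3.91 and 1.89 CPM, with an average of 2.59 ± 0.57. The X-linked region was called in 4 of the 7 groups, the fewest of the 12, and its call in the average was lost without control replicate 3.

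At none of the 12 lower regions did the groups differ past the threshold. Their average log2 fold changes ran from -2.06 to -2.91, the gap between groups from 0.55 to 1.44, and the adjusted p for differences among groups from 0.437 to 0.982 in edgeR. Many factor libraries had few reads at these regions, for example 1 to 25 reads at chr15:51593566-51593783, so differences among groups could be missed. Choosing regions by their weakest group also favours even changes. The region ranked first was chr19:12837103-12837337, 235 bp wide. It had 3.87 to 41.6 CPM with a median of 13.9 CPM in the factor libraries and 114, 121 and 88.0 CPM in the control. No factor library reached the lowest control library. The average was -2.76 ± 0.38 (SE; edgeR adjusted p = 1.09e-05), and the groups ran from -3.15 in GMT to -2.36 in GT.

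Replicates of a group differed more than the groups did at this region. G had 10.9, 41.6 and 12.7 CPM, GM had 8.55, 39.7 and 12.6 CPM, and GMT had 40.1, 3.87 and 6.94 CPM. The library left highest in each of these groups had the smallest total count of its group. Over the 12 lower regions and 7 groups, the library with the smallest total was the highest of its group in 65 of 84 cases, with 12 of 12 in MT and GMT and 2 of 12 in T. Over all 2180 lower regions it was the highest at 21.8% of regions in T and at 74.9% in GMT, with the other groups between, where over all regions tested the share ran from 28.8% in GT to 40.1% in G. At the 12 higher regions the same libraries were the lowest of their group in 53 of 84 cases. Over all 2106 higher regions they were the lowest at 19.7% of regions in T and at 83.6% in GMT, with the other groups between. Over all regions tested that share ran from 32.4% in T to 48.6% in GMT. In T the library with the smallest total was instead the highest of its group at 53.8% of the higher regions. The part of depth in these differences between replicates was not tested.

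The largest average loss among the 12 was at chr15:51593566-51593783, with 2.58 to 33.3 CPM and a median of 13.8 CPM in the factor libraries and 93.5, 108 and 74.7 CPM in the control. The groups were well apart from the control, and the average was -2.91 ± 0.33 (SE; edgeR adjusted p = 8.75e-07). At chr10:108018691-108018891 the factor libraries had 8.79 to 60.2 CPM (median 22.4 CPM) and the control 86.9, 122 and 143 CPM, with an average of -2.37 ± 0.31. At chr12:41816574-41816779 the factor libraries had 8.79 to 156 CPM (median 51.3 CPM) and the control 241, 267 and 274 CPM, with an average of -2.44 ± 0.43. The library highest there was G replicate 2, and GM replicate 2 followed with 151 CPM; both correlated better with the control than with their own group over all regions. At chr10:74297061-74297457 the factor libraries had 11.7 to 120 CPM (median 33.3 CPM) and the control 149, 206 and 168 CPM, with an average of -2.22 ± 0.33. GMT replicate 1 gave the 120 CPM, where the other GMT libraries had 18.1 and 20.8 CPM.

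The remaining lower regions were chr7:109918395-109918717, chr8:93044056-93044256, chr8:95230201-95230548, chr9:23498963-23499316, chr10:51666619-51666989, chr7:102404226-102404428 and chr14:79465548-79465790. Their factor medians ran from 10.1 CPM at chr8:93044056-93044256 to 27.6 CPM at chr14:79465548-79465790. The lowest control value among them was 60.5 CPM, in control replicate 3 at chr7:109918395-109918717, where the factor libraries reached 42.2 CPM. The average changes ran from -2.65 ± 0.44 there to -2.06 ± 0.30 at chr14:79465548-79465790, and every factor library was below every control library.

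**Figure D4:**
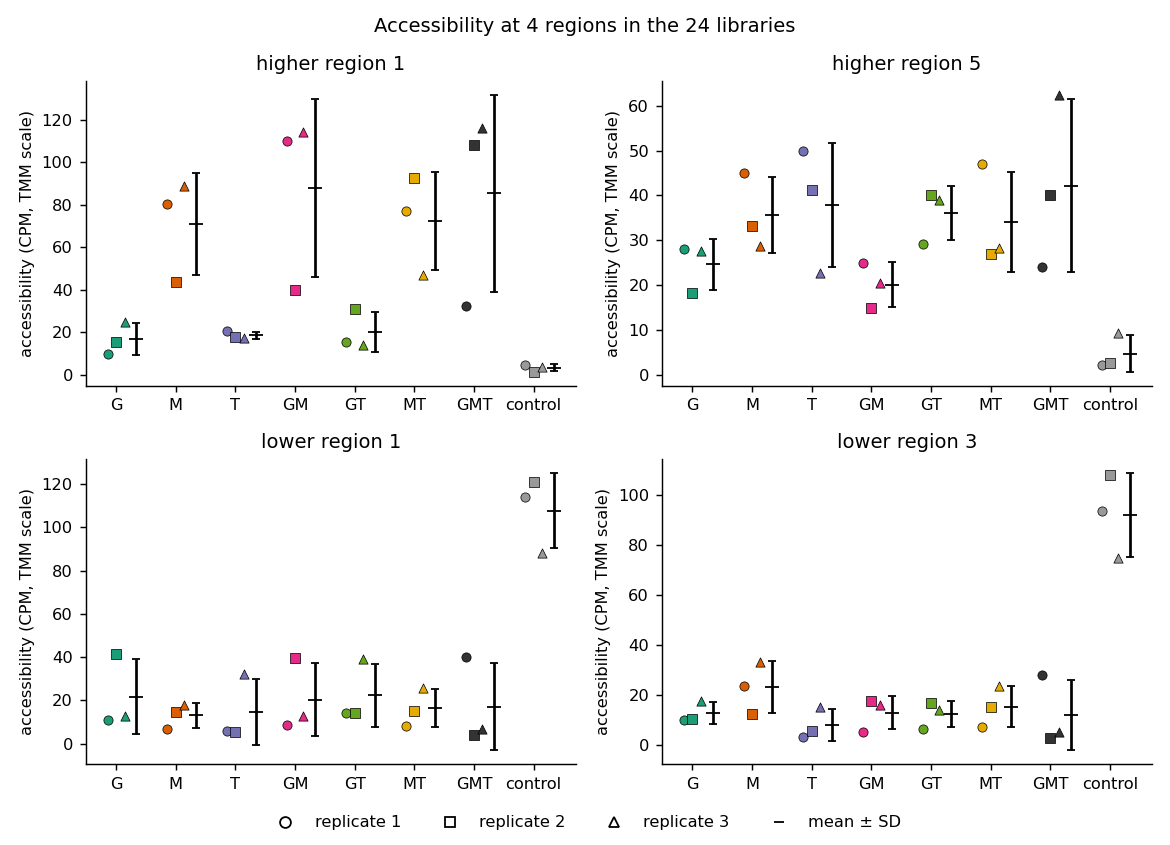
Accessibility (CPM, TMM scale) in all 24 libraries at chr3:52890609-52891176 (higher region 1), chr2:154317712-154318188 (higher region 5), chr19:12837103-12837337 (lower region 1) and chr15:51593566-51593783 (lower region 3), with the mean and SD of each group. The control libraries lie below all factor libraries in the upper panels and above them in the lower panels, and at higher region 1 the groups with Mef2c stand above the others.

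The most even changes were small. At chr6:5392607-5393029 the factor libraries had 85.2 to 149 CPM with a median of 108 CPM and the control 66.8, 71.6 and 68.1 CPM. The average gain was 0.69 ± 0.20 (SE; edgeR adjusted p = 0.0141), and the 7 groups lay within 0.29 of each other on the log2 scale. The next smallest spreads among gains were found at chr13:51943971-51944569, with an average of 1.07 ± 0.25 and groups within 0.59, and at chr5:135594495-135594809, with 0.93 ± 0.27 and groups within 0.68. Small and even losses were found as well. At chr11:21471796-21472225 the factor libraries had 338 to 504 CPM with a median of 443 CPM and the control 530, 621 and 741 CPM, with an average of -0.55 ± 0.14 (SE; edgeR adjusted p = 0.00598) and all groups within 0.23. At chr9:113840020-113840223 the average was -0.51 ± 0.16 and at chr4:48292245-48292573 it was -0.47 ± 0.14, with all groups within 0.26 in both. These regions were chosen for their small spread, so it is given as a description. Calls of this size were not firm: at chr6:5392607-5393029 the call was lost without any single control library and in 9 of 46 alternatives (edgeR adjusted p up to 0.138), and the other 5 lost it in 1 to 7. Without control replicate 3 the call was lost at each of the 6 except chr13:51943971-51944569, without control replicate 2 also at chr5:135594495-135594809, chr9:113840020-113840223 and chr4:48292245-48292573, and without control replicate 1 at chr5:135594495-135594809.

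Whether the changes recurred in libraries that had not chosen the regions was examined by leaving out all libraries of a replicate number, calling regions in the rest, and looking at the libraries left out. Each factor library was set against the control library of its number, so the 7 share that control. Without replicates 1, 2 and 3 in turn, 1907, 502 and 224 regions were called higher and 1834, 1177 and 964 lower. In the libraries left out, the mean of the 7 groups had the same direction at 86.5%, 98.6% and 98.7% of the regions called higher, where 48.2%, 53.3% and 56% of all regions tested were above the control. The regions called lower kept their direction at 95.6%, 98.4% and 99.3%, where 51.8%, 46.7% and 44% of all regions tested were below the control.

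All 7 left-out libraries were on the called side at 22.8%, 37.5% and 49.6% of the regions called higher and at 57.6%, 75.1% and 69.6% of those called lower. Over all regions tested the 7 were above the control together at 9.72%, 9.54% and 14.5%, and below it together at 14.4%, 12.9% and 16.3%. The share was thus larger for losses than for gains with each replicate number left out. Library by library, the median difference ran from 0.06 in M replicate 1 to 2.65 in GMT replicate 3 at regions called higher, and from -1.91 in GMT replicate 2 to -0.57 in GMT replicate 1 at regions called lower. GMT replicate 1 gained 1.07 where the other GMT libraries gained 2.45 and 2.65. GT replicate 1 gained 0.44 where GT replicates 2 and 3 gained 1.74 and 1.43.

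**Figure D5:**
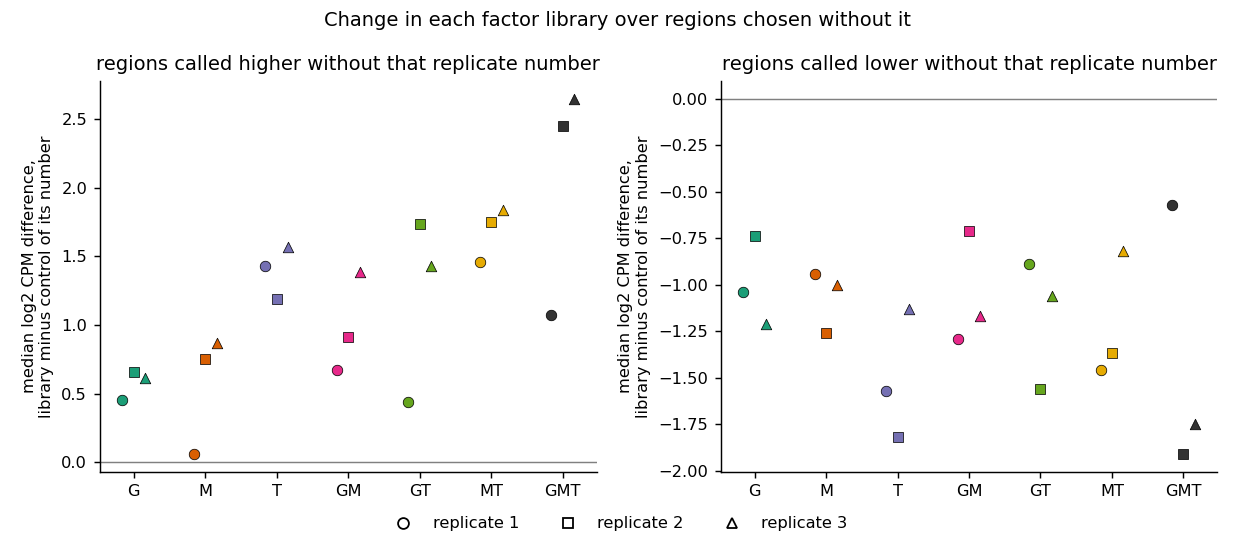
Each point is 1 factor library. The y axis gives its median log2 CPM difference from the control library of the same replicate number, over regions called higher (left) or lower (right) in a fit without that number. All 21 medians are above 0 on the left and below 0 on the right, and the point nearest 0 on the left is M replicate 1 at 0.06.

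The regions that gained and those that lost differed in width. Gained regions had a median width of 339 bp, lost regions 230 bp and all regions tested 261 bp. Of regions up to 205 bp, 4.59% were higher and 14.5% lower, and of regions of 500 bp and over, 26.8% were higher and 5.2% lower, with the classes between in the same order. How the regions were delimited is not given in the sources used here, so their width may depend on the same libraries, and this is a description. By chromosome the share of regions higher ran from 6.85% on chromosome 13 to 12.8% on chromosomes 18 and 19, and the share lower from 7.36% on chromosome 4 to 13.5% on chromosome 13. On X, 24 of 346 regions were higher (6.94%) and 27 lower (7.8%). Another region called in the same direction lay within 10000 bp of 313 higher regions (14.9%) and of 147 lower regions (6.74%). Of all regions tested, 8135 (39.7%) had another tested region within that distance. That share draws neighbours from all 20494 regions tested, a denser set, so it is no background for the shares of called regions.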

How the data were processed

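ATAC-seq was done on 24 analysed samples. Raw counts by region make up the deposited table, which the authors made with featureCounts after Bowtie2 and Picard on mm9, per the submitters' processing notes; versions and how the regions were defined, and whether reads or fragments were counted, are not given in the sources used here. The tools were edgeR 4.0.16 and, for loess offsets, limma 3.58.1, under R 4.3.3. Regions were kept by filterByExpr (minimum count 10, minimum total 15), libraries scaled by TMM, and 8 groups of 3 fitted together with the quasi-likelihood test. Benjamini-Hochberg adjustment ran over all regions tested within each comparison, with a threshold of 0.05. The square root of the common dispersion was 0.294. SEs were obtained by dividing the absolute log2 fold change by the root of F. Log2 CPM used a prior count of 2.

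The average took 7 group coefficients at equal weight minus the control. Differences among factor groups were tested with 6 degrees of freedom. Named regions were those called in the average with 1 sign in all 7 groups, a mean log2 CPM no lower than 4.68, the median over regions tested, and no overlap of factor and control libraries: the 12 per direction with the strongest weakest group, the 3 with the largest average and the 3 with the smallest spread; 3 more per direction had the largest spread among called regions that differed among groups. The comparison, lists and rules were chosen with earlier results of these data known. Gene lists could not be used without an mm9 annotation. Alternatives were RLE scaling, total counts, loess offsets, other filters, DESeq2 1.42.0, a replicate block, other sets of groups and leaving out libraries. The fits were tested on simulated data. Intervals take each count as independent and cover counting error only. They make no allowance for the choice of regions by the size of their change. Pooled rates sum reads over libraries, so the groups do not count equally in them. Total counts per library, 241394 to 1704896, limit precision at regions with few reads in the control or in the factor libraries.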

Additional observations from a re-analysis of the deposited data

Results flagged for a closer look

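The 6 regions named for their spread were taken from those called in the average and in edgeR's F test of differences among groups. That test was adjusted over all regions. Since passing it was a condition of the choice, its adjusted p-values here are a description. The 7 factor groups differed there in size or direction of change. At chr15:53151300-53151669 (adjusted p = 2.52e-09) the level was 174 ± 31.3 CPM in M, 102 ± 40.5 CPM in MT, 48.4 ± 29.1 CPM in GMT and 30.0 ± 10.1 CPM in GM. It was 1.38 ± 1.36 CPM in G, 2.72 ± 3.67 CPM in GT, 11.5 ± 11.4 CPM in T and 4.90 ± 3.61 CPM in the control (SD, n = 3 each). Every group with Mef2c had a mean above the control, and G and GT had means below it. At chr3:129339713-129339967 (edgeR adjusted p = 1.61e-08) groups with Gata4 had 21.5 to 72.0 CPM on average. There T had 18.8 ± 1.81 CPM, MT 8.43 ± 3.35 CPM, M 1.08 ± 1.11 CPM and the control 3.93 ± 1.15 CPM. At chr7:140922621-140922864 (edgeR adjusted p = 5.99e-06) T had 0.633 ± 1.10 CPM, GM 50.6 ± 11.7 CPM and the control 6.4 ± 2.56 CPM.

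Among regions lower in the average, chr3:138925488-138925690 (edgeR adjusted p = 4.51e-08) had 78.1 ± 6.93 CPM in M, 4.29 ± 1.36 CPM in G and 32.1 ± 5.24 CPM in the control. At chr5:103006152-103006453 (edgeR adjusted p = 5.31e-06) M had 97.0 ± 18.4 CPM, T 6.01 ± 6.34 CPM and the control 49.3 ± 25.0 CPM. At chr17:84242883-84243476 (edgeR adjusted p = 9.65e-06) T had 154 ± 48.0 CPM, M 8.45 ± 5.15 CPM and the control 95.6 ± 25.6 CPM. Over 46 alternatives the call of the average was lost in 4 to 16 at these 6 regions. In all 3 lower regions a single-factor group had a mean above the control and another a mean below it.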

How the results depend on the processing

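Higher and lower counts of the average became 1304 and 966 with a stricter filter, 483 and 1372 with single factors only, 83 and 466 with the 21 factor libraries as a single group, 4718 higher with GMT alone and 1386 higher without GMT. Leaving out single libraries gave 362 to 2530 higher and 1033 to 2800 lower. Dropping a replicate number from every group gave 224 to 1907 higher and 964 to 1834 lower (502 and 1177 for number 2). Without the 4 libraries that resembled another group, chosen after seeing the data, 3685 were lower. The every-group test called 1 lower region with RLE scaling, loess offsets, DESeq2 and no filter, 0 to 1 lower and 0 to 0 higher with libraries left out, and 26 lower without the 4; the looser readings gave 13 and 117, or 90 and 507. Counts of differences among groups ran from 7830 to 12944 with 1 library or number left out, and were 14674 without the 4 and 4867 with the stricter filter. Of these, 345 to 2342 were higher and 360 to 1204 lower in the average with 1 library left out, down to 186 and 246 with a number dropped (392 and 251 for number 2). They were 1204 and 390 with the stricter filter, and 2930 and 2023 without the 4. As a share, 78.1% to 95.3% of higher and 21.3% to 54.9% of lower regions differed. The pairs gave 20 to 301 calls with 1 library left out, 0 without number 2 or 3, 50 with RLE and 359 without the 4. GMT against single factors gave 1380 to 4639 with 1 library left out, 733 to 4969 with a number dropped (1040 for number 2), and 2616 with loess. With 1 library or number left out the range was 4292 to 7924 for Gata4, 3856 to 7284 for Mef2c and 5000 to 8429 for Tbx5, and without the 4 the counts were 8462, 7826 and 9779. Of 37 named regions, 24 kept their call in every alternative that gave a value (46 for 22 of them, 45 for 2), 13 lost it in some and 0 reversed. The cause of these shifts was not tested. Some alternatives also changed the number of regions tested or of libraries.

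Deviations of same-numbered libraries from their group means had correlations of -0.437 to 0.482 (median 0.0146). For libraries of different numbers they were -0.387 to 0.478 (median -0.00905). Correlations exceeded 0.1 in 24 of 84 pairs with the same number and 43 of 168 with different numbers. Of 24 libraries, 11 correlated best with their own number. With ranges this wide, whether numbers pair samples cannot be settled. With a replicate block 2096 regions were higher, 2173 lower and 1 lower in every group.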
